A study of Mus musculus with 12 samples.

Results

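The 10 genes described here are the chondrogenic transcription factors Sox5, Sox6 and Sox9 and the cartilage matrix genes Acan, Comp, Matn1, Matn3, Hapln1, Prg4 and Tnc. They are 10 of the 21851 protein-coding genes with an annotated coding start. They were chosen by name, and each peak overlapping the gene body or the 50000 bp on either side was assigned to the gene. These gene windows add up to 2808 kb of the mm10 genome. They ran from 106 kb for Sox9 to 1054 kb for Sox5, and the median window over all protein-coding genes was 117 kb. Within them lay 28 distinct segments carrying a peak in at least 1 of the 4 deposited peak lists.

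The lists come from chromatin immunoprecipitation and sequencing (ChIP-seq) of mouse mesenchymal stem cells (MSCs), stromal cells that can form bone, cartilage and fat. The cells were taken from wild-type male C57BL/6 N mice aged 3 to 5 months, grown in culture and purified by flow cytometry, on day 12 according to the sample labels. Hypoxia-cultured MSCs were kept at 2% oxygen. Normoxia-cultured MSCs had also started at 2% oxygen and were moved to 21% after the sort, so that both groups share the hypoxic expansion. The sort kept CD45-/TER-119-/Sca-1+/CD140a+ cells. There were 12 libraries in 6 groups of 2, namely H3K27ac, H3K4me3 and input at each oxygen level. Each peak list pools both libraries of its group, which leaves no values per library, no depth and no test between the oxygen levels. All differences below are therefore differences between peak lists without a replicate check, and the intervals given cover counting error only.

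Cartilage is built by chondrocytes, which arise from mesenchymal progenitors. Sox9 is the master regulator of this lineage, and Sox5 and Sox6 act beside it to switch on genes of the cartilage matrix. That matrix is a network of collagen II fibrils filled with aggrecan, the large proteoglycan encoded by Acan, which the link protein encoded by Hapln1 ties to hyaluronan. Matrilins (Matn1, Matn3) and cartilage oligomeric matrix protein (Comp) join the fibrils to other matrix parts, lubricin (Prg4) coats the joint surface, and tenascin C (Tnc) is a glycoprotein of developing and mechanically loaded connective tissue. H3K4me3, trimethylation of lysine 4 on histone H3, marks gene starts that are active or ready for use. H3K27ac, acetylation of lysine 27 on the same histone, marks starts and enhancers in use.

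H3K4me3 was present at the start of most of these cartilage genes, whereas H3K27ac was present at fewer of them. A start counted as marked when a peak came within 1000 bp of it. H3K4me3 was found at 8 of the 10 genes, all but Matn1 and Prg4 (95% Clopper-Pearson interval 44.4 to 97.5%), and at 58.9% of all protein-coding genes. H3K27ac was found at 4 of the 10, namely Sox6, Sox9, Comp and, in hypoxia alone, Tnc (12.2 to 73.8%), and at 37.7% of all genes. The same 4 genes carried both marks, against 36.5% of all genes. Sox5, Acan, Matn3 and Hapln1 carried H3K4me3 with no H3K27ac at the start, a state found at 22.4% of all genes. An interval from 10 genes is wide, and each of these backgrounds lies inside it.

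The 10 genes differed most in the H3K27ac around them. At least 1 H3K27ac peak lay in the windows of 7 of the 10 genes, against 65.2% of all genes (34.8 to 93.3%). No H3K27ac peak lay in the windows of Acan, Matn1 and Prg4. The share of the window under H3K27ac peaks in hypoxia was highest for Comp at 30.4%, followed by Tnc at 12.8%, Matn3 at 10.9%, Sox9 at 4.26%, Sox6 at 4.12%, Hapln1 at 1.75% and Sox5 at 0.759%. In normoxia it was 18.4% for Comp, 10.9% for Tnc and 2.77% for Sox6, and the other 7 windows had the same share as in hypoxia. The median window of all genes held 2.88% in hypoxia and 2.83% in normoxia. For Comp, 4.15% of all genes reached its share in hypoxia and 11.2% reached its share in normoxia. Much of this lay at neighbouring genes. Counting only peaks whose nearest coding start belonged to the gene, Tnc was highest at 12.8% in hypoxia and 10.9% in normoxia, Comp held 10.1% in both lists and Matn3 held 0%.

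**Figure D1:**
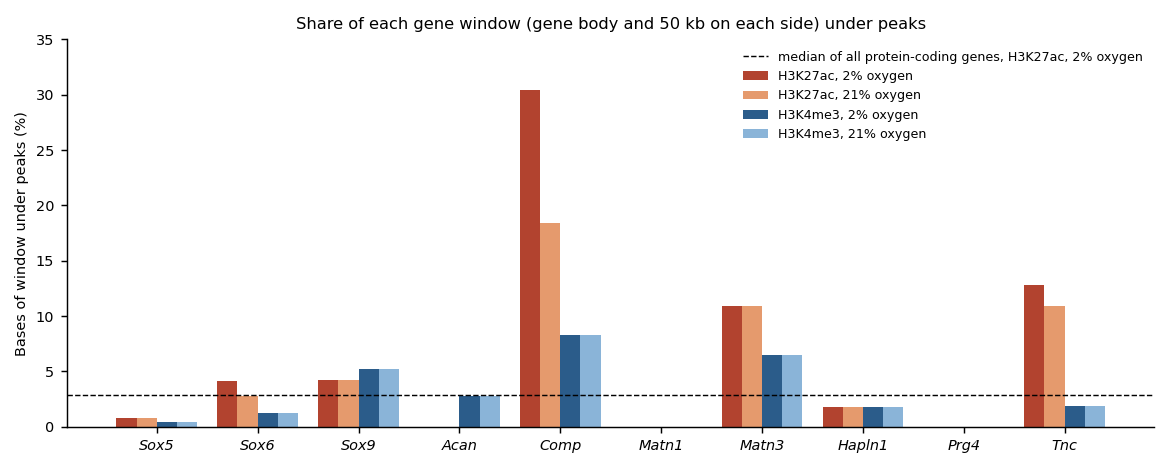
Percent of the bases of each gene window (gene body and 50 kb on each side) under peaks of the 4 lists, as bars for H3K27ac and H3K4me3 at 2% and 21% oxygen; the dashed line is the median of all protein-coding genes for H3K27ac at 2% oxygen. Comp stands highest at 30.4% and 18.4% for H3K27ac, of which 10.1% in each list lies in peaks nearest to Comp and the rest nearest to its neighbour Upf1; Acan has H3K4me3 alone, and Matn1 and Prg4 have no peak of either mark.

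The peaks that separated the oxygen levels were all H3K27ac peaks of the hypoxia list. Of 19 H3K27ac peaks near the 10 genes in hypoxia, 3 shared no base with the normoxia list and are called hypoxia-only. They lay in an intron of Sox6, upstream of Comp over the neighbouring gene Upf1, and at the start of Tnc. This is 15.8% of the peaks (3.38 to 39.6%), against 3.87% of all H3K27ac peaks in hypoxia. By gene, 3 of 10 windows held a hypoxia-only H3K27ac peak, against 7.55% of all genes (6.67 to 65.2%). At a start it was 1 of 10, Tnc, against 1.09% of all genes (0.253 to 44.5%). Window size was not matched in the count by window, and a longer window has more room for a peak. The windows of Sox6, Tnc and Comp were 668, 187 and 109 kb, against a median of 117 kb over all genes. None of the 16 H3K27ac peaks in normoxia was normoxia-only, which allows a share of up to 20.6%, against 1.47% of all peaks in that list. By gene it was 0 of 10 windows, which allows up to 30.8%, against 1.85% of all genes. Each of these backgrounds lies within the interval of the 10 genes or below its upper limit. H3K4me3 gave 15 peaks at each oxygen level, and each of them was in both lists. The full H3K4me3 lists were also close in size, with 14606 peaks in hypoxia and 14603 in normoxia. A share of condition-specific peaks over all H3K4me3 peaks is not given here, so the match is not read as particular to these genes.

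These 3 hypoxia-only peaks had low scores. The deposited score runs from 50 to 160, with a top class at 1000, and its definition was not stated. It is used here only to rank peaks within a list. The 3 peaks scored 64 near Sox6, 55 near Comp and 52 at Tnc, which placed them at the 16.4, 6.71 and 2.81 percentile of the hypoxia list. Leaving out the lowest-scoring 25% of that list left 0 hypoxia-only peaks near the 10 genes. Leaving them out of both lists gave 0 hypoxia-only peaks and 1 normoxia-only peak. The latter is an intron peak of Sox5, chr6:143915001-143919000, which is present in both full lists. Its score of 72 fell under the cut in hypoxia, and its score of 76 stayed above the cut in normoxia.

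**Figure D2:**
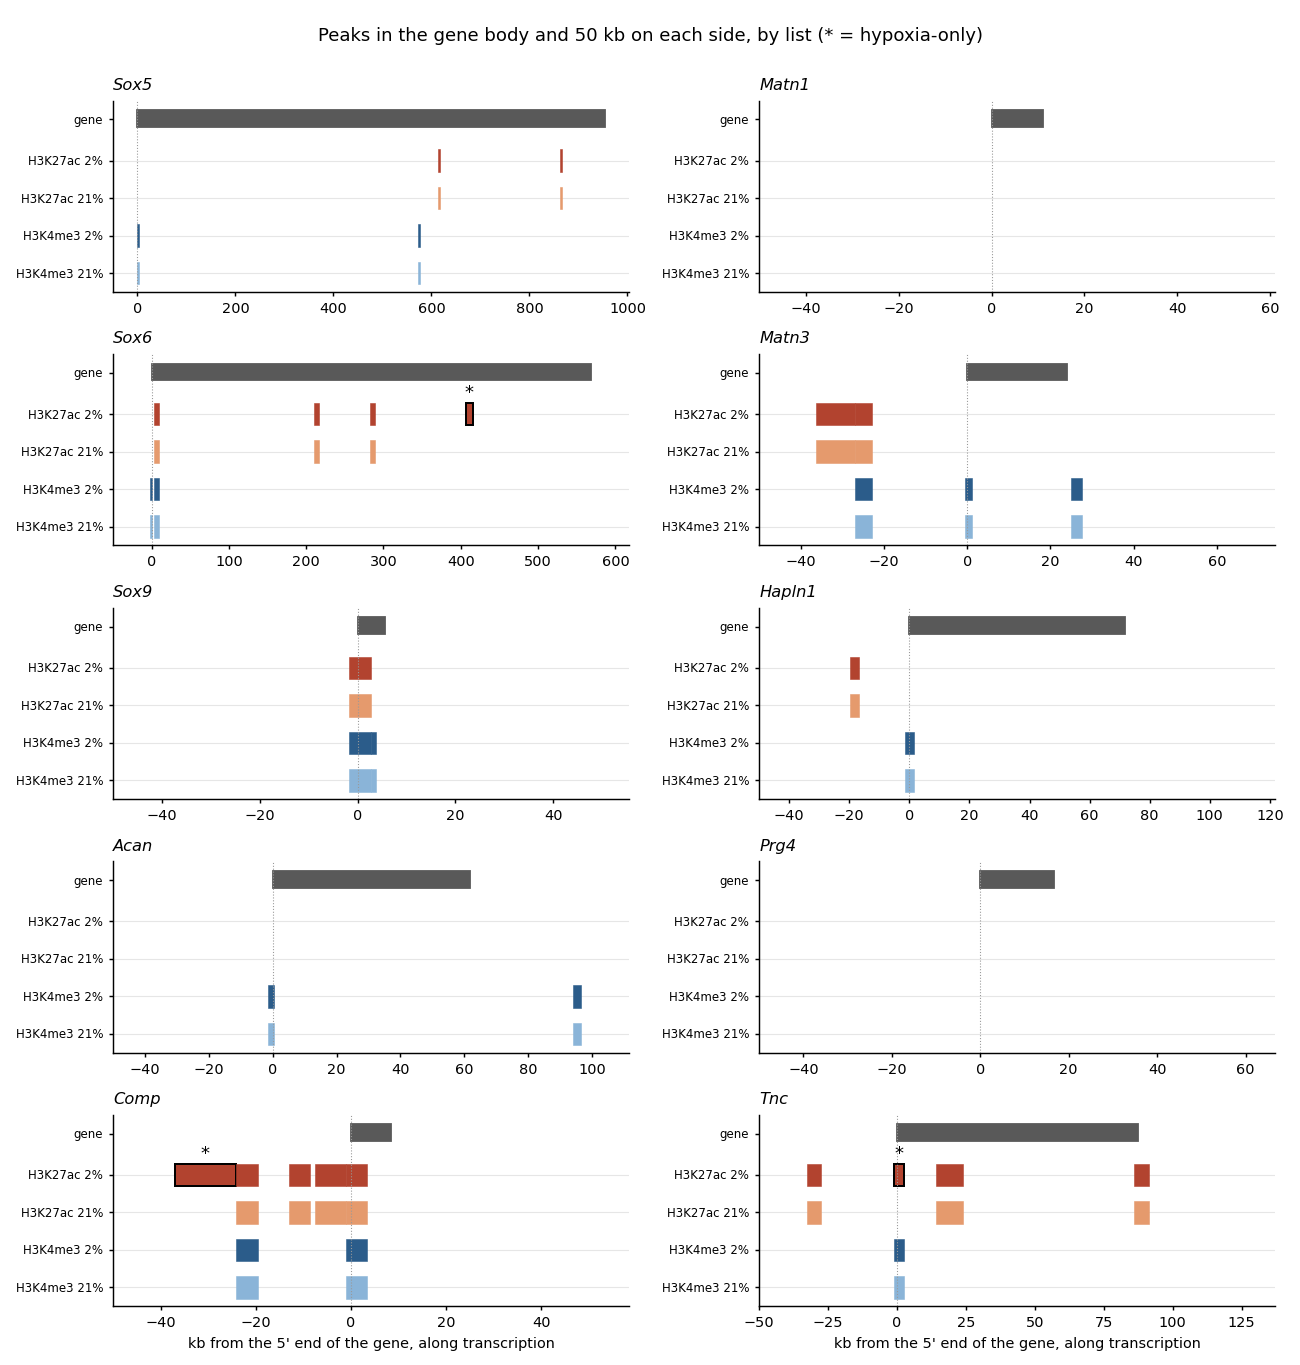
Peaks of the 4 lists in the window of each gene, by distance in kb from the 5′ end of the gene record along the direction of transcription; the grey bar is the gene, filled boxes are peaks, and an asterisk with a black outline marks a hypoxia-only peak. The asterisks stand in Sox6, Comp and Tnc, on the H3K27ac row at 2% oxygen; scales differ between panels, and peaks too narrow for the scale are drawn with a minimum width.

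Sox9, the factor that cartilage formation depends on, had the same peaks in its window at both oxygen levels. Sox9 (ENSMUSG00000000567.5) lies on the plus strand at chr11:112782224-112787760. Its start was covered by chr11:112780501-112785000, which carried H3K27ac with a score of 139 in hypoxia and 138 in normoxia, and H3K4me3 at the top score of 1000 in both lists. H3K4me3 went on into the gene body for another 1000 bp (score 94 in both). The joined H3K4me3 stretch of 5500 bp was wider than 94.7% of the 11783 H3K4me3 stretches at coding starts, whose median was 3000 bp. Sox9 was the only one of the 10 genes with the top H3K4me3 score.

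Sox9 is known to be controlled by enhancers scattered through a long gene-poor region. Beyond the window, 4 H3K27ac peaks had Sox9 as the nearest coding start. In both lists were chr11:111960501-111963000, which is 819224 bp upstream (score 56 and 56), chr11:112470001-112475500 at 306724 bp upstream (59 in hypoxia, 60 in normoxia) and chr11:112619001-112623000 at 159224 bp upstream (138 and 138). The fourth, chr11:113142501-113146000, lay 360277 bp downstream of the start and was hypoxia-only with a score of 52. Being nearest is a distance and not a measured link to Sox9.

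Sox6, a SoxD factor that works with Sox5 and Sox9, held the largest set of H3K27ac peaks among the regulators and differed most between the lists. Sox6 (ENSMUSG00000051910.13) lies on the minus strand at chr7:115470872-116038796. At the top of the gene, chr7:116029501-116035500 carried H3K27ac with a score of 1000 in hypoxia and 123 in normoxia, and H3K4me3 with 134 in both. This segment lies over a Sox6 start at 116031047 and over the start of the antisense transcript Sox6os. Its 6000 bp of H3K4me3 were wider than 96.3% of stretches at starts. The first Sox6 start, at 116038744, lay under a separate H3K4me3 peak of 2500 bp at chr7:116038501-116041000 (score 133 in both) without H3K27ac. A start inside the gene, at 115824710, showed the reverse combination. There chr7:115822001-115828500 carried H3K27ac with a score of 1000 in hypoxia and 103 in normoxia and no H3K4me3. A further intron peak at chr7:115750001-115756000 had the top score of 1000 in both lists.

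The hypoxia-only peak of Sox6 spanned 9000 bp of intron at chr7:115623501-115632500, 192210 bp downstream of the nearest Sox6 start. It was the only H3K27ac peak in the window of Sox6 that the normoxia list lacked. The 200 bases at its centre are printed from the plus strand of mm10 (GRCm38.p6) because this is the only segment in the windows of the 3 Sox genes with H3K27ac in 1 list alone. The capitals mark CG pairs.
Sox6 hypoxia-only intron peak, centre, chr7:115627901-115628100: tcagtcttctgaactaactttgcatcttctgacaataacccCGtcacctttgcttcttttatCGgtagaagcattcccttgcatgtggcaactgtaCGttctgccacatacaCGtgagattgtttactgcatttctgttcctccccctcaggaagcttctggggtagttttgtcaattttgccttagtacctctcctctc

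To set the marks at the Sox6 starts beside their sequence, the 250 bases before 3 of them are given on the strand of the gene. They are taken from the RefSeq promoter table (GRCm38.p6), with CG pairs in capitals. The first is the H3K4me3-only start, the second carries both marks and the third carries H3K27ac alone.
Sox6 start 116038744, chr7:116038745-116038994, H3K4me3 only: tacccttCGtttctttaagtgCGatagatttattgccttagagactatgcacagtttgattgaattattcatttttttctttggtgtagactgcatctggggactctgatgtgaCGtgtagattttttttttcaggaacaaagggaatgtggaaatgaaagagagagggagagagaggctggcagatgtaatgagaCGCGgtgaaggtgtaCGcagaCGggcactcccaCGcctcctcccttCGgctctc
Sox6 start 116031047, chr7:116031048-116031297, both marks: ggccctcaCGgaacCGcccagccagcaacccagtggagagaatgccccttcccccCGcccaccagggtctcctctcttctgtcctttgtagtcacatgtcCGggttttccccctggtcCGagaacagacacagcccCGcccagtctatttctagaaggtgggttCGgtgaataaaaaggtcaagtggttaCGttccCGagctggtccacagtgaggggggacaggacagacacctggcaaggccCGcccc
Sox6 start 115824710, chr7:115824711-115824960, H3K27ac only: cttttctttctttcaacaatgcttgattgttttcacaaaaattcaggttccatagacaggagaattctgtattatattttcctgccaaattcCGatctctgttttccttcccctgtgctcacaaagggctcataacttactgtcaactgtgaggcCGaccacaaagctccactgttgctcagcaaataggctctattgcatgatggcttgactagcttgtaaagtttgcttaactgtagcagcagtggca

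These 250 bases held 9 and 10 CG pairs at the starts with H3K4me3 and 2 at the start without. Over 300 bases, from 250 before to 50 after the start, the ratio of observed to expected CpG was 0.672 for the first, 0.443 for the second and 0.265 for the third. The other 3 Sox6 starts in the table, at 115801609, 115846140 and 115995086, carried neither mark and had ratios of 0.199, 0.160 and 0.184. The class medians were taken over the first RefSeq start of each coding gene, 17492 in all. They were 0.827 where both marks were present, 0.732 with H3K4me3 only, 0.237 with H3K27ac only and 0.193 with neither. Of the Sox6 starts only that at 116038744 is a first start, so the others are set beside starts of another kind. The Sox6 starts were thus ordered as the classes were, except that the start with H3K4me3 only was richer in CpG than the start with both.

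Sox5, the partner of Sox6, had H3K4me3 at its start and weakly ranked H3K27ac inside the gene. Sox5 (ENSMUSG00000041540.16) lies on the minus strand at chr6:143828425-144781977. H3K4me3 at chr6:144208001-144210500 (score 142 in both lists) covered coding starts in the middle of the gene record. A second H3K4me3 peak at chr6:144780501-144783000 (score 144 in both) covered the 5′ end of the record, where only transcripts outside the basic coding set begin. H3K27ac was found in introns at chr6:143915001-143919000, with a score of 72 in hypoxia and 76 in normoxia, and at chr6:144165001-144169000, with 77 and 79. Both intron peaks ranked between the 24.0 and 32.9 percentile of their lists. The RefSeq start at 143947106, with a CpG ratio of 0.256, carried neither mark.

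Acan, which encodes the core protein of aggrecan, carried H3K4me3 at its start and no H3K27ac. Acan (ENSMUSG00000030607.7) lies on the plus strand at chr7:79053483-79115099. H3K4me3 at chr7:79052001-79054000 scored 133 in both lists. It was narrow, at 2000 bp, and 1.79% of H3K4me3 stretches at starts were narrower. The only other peak of the window was H3K4me3 at the start of Mfge8, chr7:79147501-79150000, with 133 in both lists. The nearest H3K27ac peak of either list was 80983 bp away from the start.

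Hapln1, the link protein, had the same start state as Acan but a strong H3K27ac peak upstream. Hapln1 (ENSMUSG00000021613.9) lies on the plus strand at chr13:89539796-89611652. H3K4me3 at chr13:89538501-89541500 scored 131 in both lists and was 3000 bp wide, the median width. H3K27ac lay in intergenic sequence 16796 bp upstream, at chr13:89520001-89523000, with the top score of 1000 in both lists. This upstream segment had the lowest GC content of the 28 segments, at 36.2%, and the lowest CpG ratio, at 0.0925.

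Prg4, which encodes lubricin, had no peak of either mark. Prg4 (ENSMUSG00000006014.16) lies on the minus strand at chr1:150449412-150466165. The nearest H3K27ac peak lay 71098 bp from its start. Matn1, a matrilin of cartilage, likewise had no peak in its window. Matn1 (ENSMUSG00000040533.7) lies on the plus strand at chr4:130944385-130955475, and the nearest H3K27ac peak lay 138385 bp away. An absent peak says that the caller made no call there in the pooled libraries, and at an unknown depth it does not show that the mark was absent.

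Matn3, the matrilin of growth plate cartilage, had the weakest and narrowest marked start of the 10 genes. Matn3 (ENSMUSG00000020583.4) lies on the plus strand at chr12:8947929-8972028. H3K4me3 at chr12:8947501-8949000 scored 53 in both lists, at the 0.733 percentile in hypoxia. Its 1500 bp compare with a median of 3000 bp, and 0.0509% of stretches at starts were narrower. The H3K27ac counted for Matn3 lay around its neighbour Laptm4a, at chr12:8911501-8921000 and chr12:8921001-8925000, with a score of 129 in each list. The second of these also carried H3K4me3 (score 121) at the Laptm4a start, and the last peak of the window was H3K4me3 at the Wdr35 start (121). The 10.9% of the Matn3 window under H3K27ac therefore lies at another gene, and Matn3 itself had none.

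**Figure D3:**
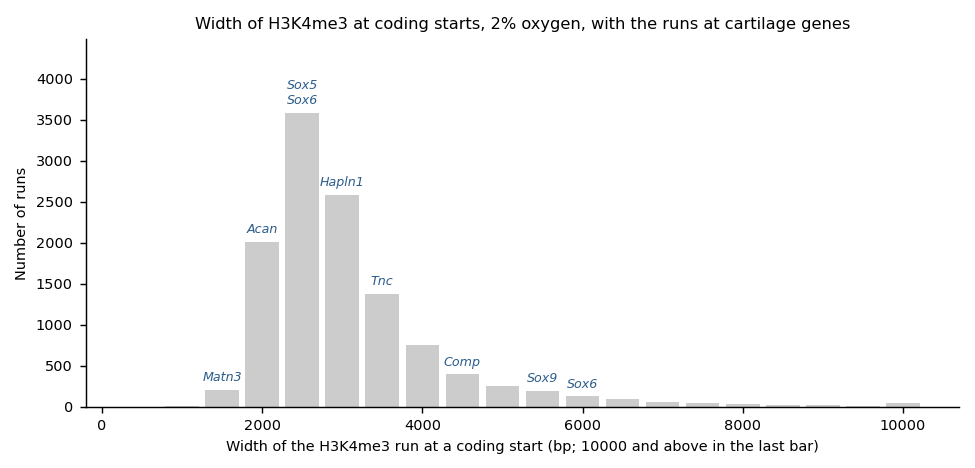
Number of H3K4me3 stretches at coding starts at 2% oxygen by width in bp (grey bars; touching peaks joined), with the names of the cartilage genes above the bar that holds their stretch. Matn3 at 1500 bp and Acan at 2000 bp stand at the narrow end, and Sox9 at 5500 bp and Sox6 at 6000 bp at the wide end; Sox6 appears a second time at 2500 bp.

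The start regions of Acan, Hapln1, Matn3 and Matn1 are shown together because the first 3 carried H3K4me3 and the last carried nothing. Each line gives the 250 bases before the RefSeq start on the plus strand, the strand of the gene, from GRCm38.p6 with CG pairs in capitals.
Acan, chr7:79052976-79053225, H3K4me3 only: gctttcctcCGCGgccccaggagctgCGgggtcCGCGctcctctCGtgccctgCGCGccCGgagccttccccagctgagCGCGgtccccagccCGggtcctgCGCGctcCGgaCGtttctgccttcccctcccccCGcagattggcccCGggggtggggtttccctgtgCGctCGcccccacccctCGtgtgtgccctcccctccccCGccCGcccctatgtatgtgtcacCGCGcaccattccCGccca
Matn3, chr12:8947679-8947928, H3K4me3 only: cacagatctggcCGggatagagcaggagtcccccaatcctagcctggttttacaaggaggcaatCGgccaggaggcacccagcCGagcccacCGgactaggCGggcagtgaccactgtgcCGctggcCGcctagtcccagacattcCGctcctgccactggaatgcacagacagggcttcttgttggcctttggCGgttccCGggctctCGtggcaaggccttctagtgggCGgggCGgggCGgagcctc
Hapln1, chr13:89540386-89540635, H3K4me3 only: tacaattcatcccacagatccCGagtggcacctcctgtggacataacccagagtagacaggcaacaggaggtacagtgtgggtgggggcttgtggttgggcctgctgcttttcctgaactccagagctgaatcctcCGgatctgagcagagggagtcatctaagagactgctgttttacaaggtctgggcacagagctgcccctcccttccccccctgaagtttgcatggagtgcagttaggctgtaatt
Matn1, chr4:130944135-130944384, neither mark: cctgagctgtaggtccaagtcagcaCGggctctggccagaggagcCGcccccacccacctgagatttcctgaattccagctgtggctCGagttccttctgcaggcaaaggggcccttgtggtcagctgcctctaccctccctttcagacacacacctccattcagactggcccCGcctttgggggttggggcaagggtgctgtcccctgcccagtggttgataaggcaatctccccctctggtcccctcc

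Acan had 26 CG pairs in this stretch, Matn3 had 14, Matn1 had 4 and Hapln1 had 2. Over 300 bases the CpG ratio was 0.795 for Acan, 0.511 for Matn3, 0.216 for Matn1 and 0.136 for Hapln1. Matn1 was rich in G and C, at 61.3%, but poor in CG pairs, as were most starts with neither mark. The RefSeq start of Hapln1 did not follow the classes, since it carried H3K4me3 although only 15.7% of first starts had a lower CpG ratio. That RefSeq start, 89540636, lies inside the gene record used for the peaks, which begins at 89539796, under the same H3K4me3 peak. The whole H3K4me3 segment had a CpG ratio of 0.427. The 300 bases around the start of the gene record were not read, so the exception holds for the RefSeq start only.

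**Figure D4:**
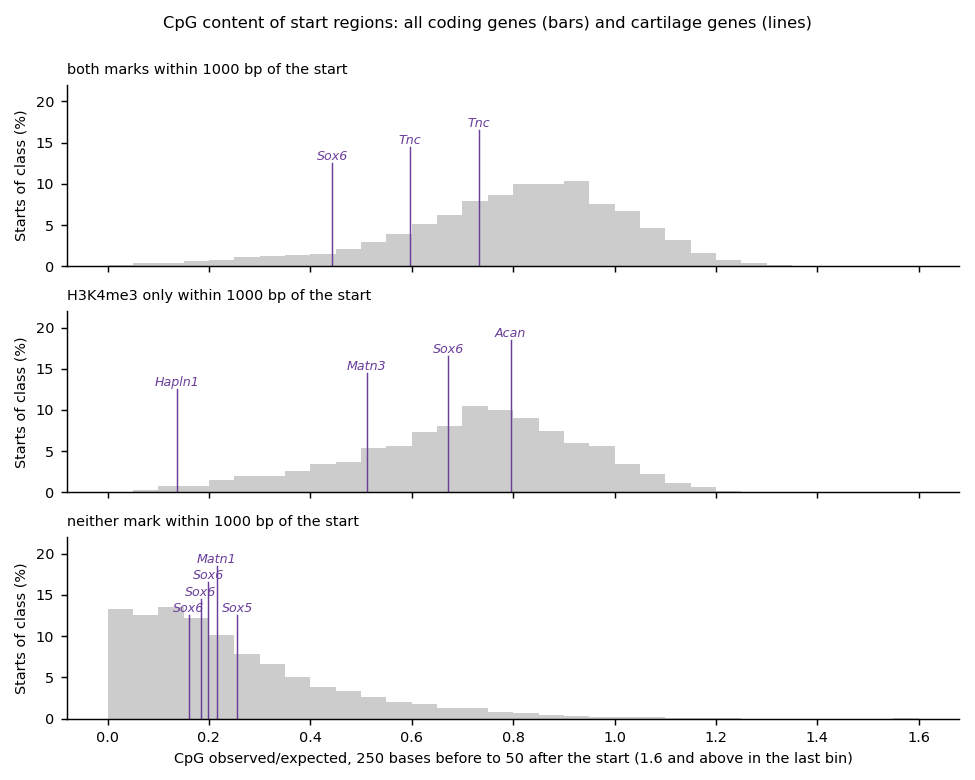
Distribution of the CpG observed/expected ratio in 300 bases around the first RefSeq start of each coding gene. Starts are split into both marks, H3K4me3 only or neither mark (grey bars, percent of the starts in each class). Lines show the RefSeq starts of the cartilage genes, including starts that are not the first of their gene. Hapln1 at 0.136 lies far to the left of its class, whose median is 0.732, while Matn1, Sox5 and 3 Sox6 starts lie within the class with neither mark; the Sox6 start with H3K27ac only, at 0.265, is not drawn.

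Comp, a thrombospondin of cartilage and tendon, had H3K27ac over its start and upstream of it in both lists. Comp (ENSMUSG00000031849.9) lies on the plus strand at chr8:70373558-70382066. Its start was covered by chr8:70372501-70377000, with H3K27ac at a score of 133 in hypoxia and 131 in normoxia and H3K4me3 at 129 in both. H3K27ac continued upstream through the touching segment chr8:70366001-70372500 (133 in both). Joined, these 11000 bp were wider than 86.9% of the 7133 H3K27ac stretches at starts in hypoxia. A separate intergenic peak at chr8:70360501-70365000, 8558 bp upstream, scored 103 in hypoxia and 71 in normoxia.

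Of the 33000 bp under H3K27ac in the Comp window in hypoxia, 11000 bp lay in peaks whose nearest coding start was that of Comp, and these were the same in normoxia. The difference between the lists lay on the side of Upf1, a gene of RNA decay. The Upf1 start segment chr8:70349501-70354000 carried H3K4me3 at 129 in both lists and H3K27ac at 130 in hypoxia and 71 in normoxia. Touching it, the hypoxia-only peak covered 13000 bp at chr8:70336501-70349500 over exons of Upf1, 24058 bp from the Comp start. Its nearest coding start was that of Upf1, 3711 bp away.

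Tnc, a glycoprotein of the matrix around progenitors and tendon, was the only one of the 10 genes whose start state differed between the lists. Tnc (ENSMUSG00000028364.15) lies on the minus strand at chr4:63959785-64047015. Its start segment, chr4:64044501-64048000, carried H3K4me3 with a score of 123 in both lists and H3K27ac in hypoxia alone with a score of 52. Around it lay 3 H3K27ac peaks found in both lists. At the 3′ end, chr4:63955501-63961000 scored 132 in hypoxia and 113 in normoxia. In an intron, chr4:64023001-64033000 scored 56 and 57. At 27486 bp upstream, chr4:64074501-64079500 scored 100 and 113. The start and the 3′ end were thus called or ranked higher in hypoxia, and the upstream peak ranked higher in normoxia.

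A further peak just outside the window went the other way. The normoxia-only H3K27ac peak chr4:64098001-64100000 (score 50, the lowest of the list) lay 50986 bp upstream of the Tnc start. With a window of 100000 bp it is counted, and the normoxia-only peaks near the 10 genes are then 2 and not 0. The 250 bases before the first Tnc start are shown on the minus strand, from GRCm38.p6 with CG pairs in capitals, because the hypoxia-only H3K27ac covers them.
Tnc start 64047015, chr4:64047016-64047265: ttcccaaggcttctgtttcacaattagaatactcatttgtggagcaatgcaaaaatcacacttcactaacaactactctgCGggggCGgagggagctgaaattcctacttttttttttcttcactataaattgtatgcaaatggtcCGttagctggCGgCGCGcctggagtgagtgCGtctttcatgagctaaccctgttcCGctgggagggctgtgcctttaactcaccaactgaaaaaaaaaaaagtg

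These 250 bases held 8 CG pairs, and the CpG ratio over 300 bases was 0.597, or 0.732 at the second RefSeq start of Tnc, 64046936. Both Tnc start regions contained the same TATAAA, since the regions overlap. TATAAA is the core of the TATA box. It was present in 13.3% of the first starts of all coding genes, read over the same length. It was searched anywhere in the 300 bases and not at a set distance from the start, so its presence does not show a TATA box in use. The other words searched, on both strands and without regard to overlap, were ACAAAG and AACAAT, which are forms of the SOX binding site, and ACGTG, the core bound by hypoxia-inducible factors. They were present in 16.8%, 9.50% and 20.7% of the same first starts. In the 7 of the 10 genes with an entry, ACAAAG was found in 5 of the 6 Sox6 start regions, AACAAT in the Sox6 start with H3K27ac only, and ACGTG in the first Sox6 start. A further TATAAA was found in the Sox6 starts at 115801609 and 115995086. No other entry of these genes held any of the 4 words. The table has no entry for Sox9, Comp and Prg4.

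The score ranks of the 16 H3K27ac peaks found in both lists were compared next. The deposited score was higher in hypoxia for 7 of them (43.8%), higher in normoxia for 4 (25%) and equal for 5. Over all 14614 shared H3K27ac peaks, 39.9% were higher in hypoxia and 16.6% in normoxia. Since the lists differ in their score distribution, each peak was also ranked within its list. The median change in rank, hypoxia minus normoxia, was -2.19 percentile points near the 10 genes and -1.67 over all shared peaks. A peak at the top score of 1000 in both lists also shifts by -1.67. By rank, 5 of the 16 were higher in hypoxia and 11 in normoxia, and over all shared peaks 30.3% and 69.7%. Score and rank thus lean in opposite directions, near the 10 genes and over all shared peaks.

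The largest rises were at Upf1, in the Comp window, and at Sox6. The Upf1 start in the Comp window rose in rank by 39.0 percentile points, and 1.99% of all shared peaks rose as much. The internal Sox6 start at 115824710 rose by 38.3 points (2.22%), and the segment at 116031047 by 27.2 points (5.72%). Both Sox6 peaks had the top score of 1000 in hypoxia. That tied class holds 22.2% of the hypoxia list and shares the single percentile of 88.9, which sets the size of these 2 rises. The intergenic peak between Upf1 and Comp, 7223 bp from the Upf1 start and 8558 bp from the Comp start, rose by 20.1 points (8.33%), and the 3′ peak of Tnc by 11.7 points (13.8%). The upstream peak of Tnc had the largest fall, at -12.5 points. The peaks of Sox5, Sox9, Matn3 and Hapln1 and the 2 peaks nearest to Comp moved by between -6.36 and -1.67 points. Peaks with an equal deposited score in both lists are among them, with -5.54 points at Matn3 and -1.67 at Hapln1. For these the shift is a difference between the score distributions of the lists. Most of the 16 peaks thus shifted little in rank.

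**Figure D5:**
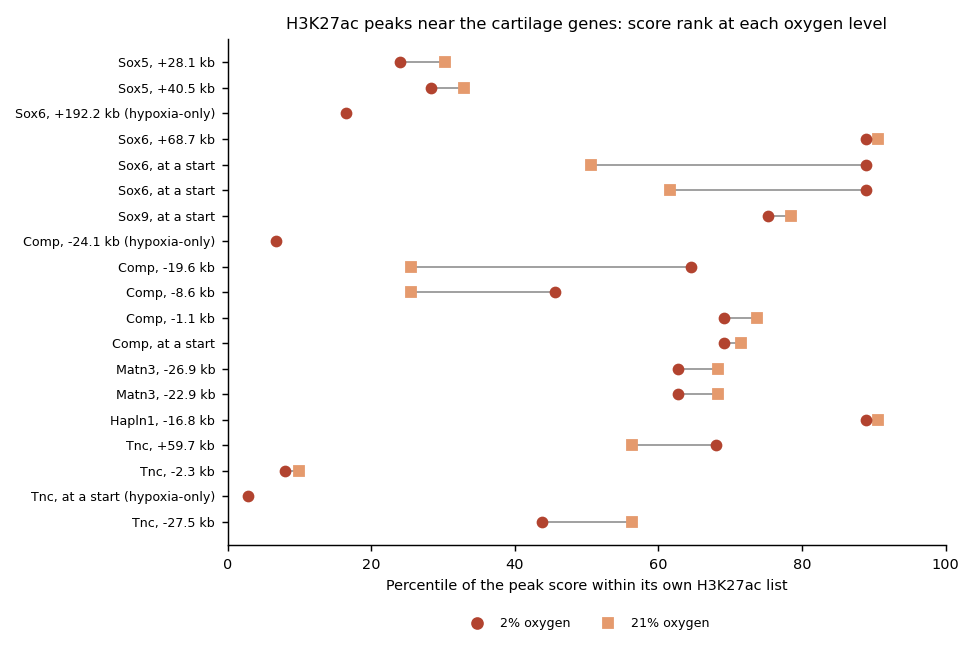
Percentile of the deposited score of each H3K27ac peak near the 10 genes within the list at 2% oxygen (circles) and at 21% oxygen (squares), joined by a line; row labels give the gene and the distance to its nearest coding start, negative upstream. The rows that stand out are peaks of Sox6 and, in the Comp window, those nearest to Upf1, with circles 20.1 to 39.0 points right of the squares, and the 3 hypoxia-only peaks without a square, at or below the 16.4 percentile.

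The sequence of the 28 segments followed the marks they carried. Of these segments, 6 carried both marks, 13 carried H3K27ac only and 9 carried H3K4me3 only. Their median GC content was 55.3%, 42.5% and 52.3%, and over all segments of the genome with the same marks it was 51.9%, 45.3% and 52.0%. The CpG ratio was 0.517, 0.170 and 0.521 near the 10 genes and 0.582, 0.202 and 0.508 genome-wide. The Tnc start had the lowest CpG ratio of the 6 segments with both marks, at 0.277. The hypoxia-only segments without H3K4me3 had 0.170 in Sox6 and 0.176 in the Comp window. Both belong to the 13 segments with H3K27ac only, and the Sox6 value is itself their median. The genome-wide median of that class, 0.202, was higher than both.

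Other genes of cartilage were read by the same rules, from a list of 28 genes. H3K4me3 was at the start of 13 and H3K27ac at the start of 7, and 20 had H3K27ac in the window. Over all protein-coding genes these shares were 58.9%, 37.7% and 65.2%. A hypoxia-only H3K27ac peak lay in the window of 7.55% of all genes and a normoxia-only one in that of 1.85%. Among 16 collagens and other matrix genes, H3K4me3 was at the start of 2, Col2a1 and Col11a1, and H3K27ac at the start of 2, Col11a1 and Mia. Among 12 regulators and signals of the growth plate, H3K4me3 was at the start of 11, all but Gdf5, and H3K27ac at the start of 5, namely Trps1, Mef2c, Runx2, Zbtb20 and Ccn2. Of the 7 cartilage matrix genes described above, 5 had H3K4me3 at the start, as did 3 of the 3 Sox genes. A hypoxia-only peak was found for 1 of the 28, Fgfr3, a receptor that restrains growth plate chondrocytes. It had touching peaks at chr5:33694501-33696500 (score 74) and chr5:33696501-33700000 (score 53) and no H3K27ac in normoxia. A normoxia-only peak was found for 1, the matrix protein gene Ccn2, at chr10:24597501-24599500 (score 53).

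The closest relatives of the 10 genes varied in the same way. Of 18 relatives, 11 had H3K4me3 at a start and 5 had H3K27ac, namely Vcan, Thbs1, Thbs2, Thbs3 and Matn2. Over all protein-coding genes these shares were 58.9% and 37.7%. Hypoxia-only peaks lay near 3 of the 18 relatives, against 7.55% of all genes. For Thbs2, a thrombospondin related to Comp, it covered the start, chr17:14691001-14695000 (score 58), the same arrangement as at Tnc. The others lay in Thbs4, chr13:92780001-92784500 (score 51), and Matn2, chr15:34368501-34374500 (score 53). A normoxia-only peak of 16000 bp lay over Thbs1, chr2:118116501-118132500 (score 50). This was 1 of the 18 relatives, against 1.85% of all genes. Vcan, the proteoglycan related to Acan, had both marks at its start, which Acan did not. Matn2 had both and Matn4 had H3K4me3 where Matn1 had neither, and Matn4 matched Matn3 in this. Others had fewer marks than their relative. Sox8 had H3K4me3 only and Sox10 neither mark where Sox9 had both. Sox13 and Thbs4 lacked the H3K27ac found at a start of Sox6 and Comp, and Sox13 with H3K4me3 only matched Sox5. Ncan, Hapln2, Hapln3, Tnn, Tnr and Tnxb had neither mark at a start, unlike Acan, Hapln1 and Tnc.

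Markers of the sorted cells were checked by the same reading. Over all protein-coding genes, 58.9% had H3K4me3 and 37.7% had H3K27ac at a start. Of 10 genes of mesenchymal stem cells, 9 had H3K4me3 and 8 had H3K27ac at the start, among them Pdgfra, which encodes the CD140a used in the sort, with both marks. Ly6a, which encodes the other positive sort marker, Sca-1, had H3K27ac and was the 1 gene of the 10 without H3K4me3 at the start. Of 6 haematopoietic genes 0 had either mark at the start, and of 4 endothelial genes 1, Kdr, had H3K4me3. Of 2 adipocyte genes 0 had a marked start, and of 3 osteoblast genes 1, Sp7, had H3K4me3.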

How the data were processed

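The 10 genes and the further gene lists were chosen with earlier results of these data known. The authors aligned reads to mm10 with Bowtie2 and removed duplicates with Picard, according to the submitters' processing notes, which give no versions. Per the study's methods, chromstaR called peaks in differential mode between the oxygen levels. The authors deposited 4 lists with positions and a score per peak, whose definition is not given in the sources used here. Input libraries and read-based comparisons were not analysed here. The lists form a single segmentation of 22555 intervals, of which 0 overlapped in part, with boundaries at multiples of 500 bp.

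Peaks were read with Python 3.11.15, NumPy 2.4.6 and SciPy 1.17.1 against GENCODE M21 (GRCm38). Starts were those of coding transcripts of the basic set. Sequences came from RefSeq, whose table held 13 entries for 7 of the 10 genes. Peaks of a list that touch were joined for widths. All 10 genes are named. Of the wider cartilage list and the relatives, genes with condition-specific peaks are named. So are relatives with a start state unlike that of their gene among the 10, and neighbours with a coding start under a counted peak. Marker genes were read for their start state only. The overlap code was tested on simulated data. Alternatives were other windows, start distances, overlap rules and score filters.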

Additional observations from a re-analysis of the deposited data

How the results depend on the processing

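No paired analysis was possible because each list pools both libraries of its group and carries no replicate number; leaving out a library was not possible for the same reason. Of 58 alternative values, 44 stayed within the tolerance set for them and 14 moved. Counting in the gene body only gave 11 H3K27ac peaks in hypoxia and 9 in normoxia, with 3.07% of the bases under H3K27ac in hypoxia. With 100000 bp on each side there were 27 H3K27ac peaks in normoxia, 25 H3K4me3 peaks in each list, 2 normoxia-only peaks and 4.60% of the bases; with 20000 bp the share was 3.53%. Assignment to the nearest coding start gave 1 normoxia-only peak. Without the lowest-scoring 25% of the counted list, 0 hypoxia-only peaks and 2.64% of the bases were left. Without the lowest-scoring 25% of both lists, hypoxia-only peaks numbered 0 and normoxia-only peaks 1, in place of 3 and 0. That normoxia-only peak is a Sox5 intron peak of both full lists, of which the filter dropped only the hypoxia entry. Counts of genes with a marked start stayed between 6 and 8 for H3K4me3 and between 3 and 4 for H3K27ac. Sequencing depth is unknown, and it limits every statement on an absent peak.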
